A study of Mus musculus with 26 samples.

Results

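The report describes 37 genes of meiotic entry and meiotic prophase, named as a list and mapped to the files by Ensembl identifier and symbol, among 57186 genes in the count table that holds wild type and all Fgf9 deletions and 31053 genes in the table of the Meis1 knockout. The rule that names them uses no measured value. It holds 3 genes of meiotic entry, 4 meiotic cohesins, 7 genes of the synaptonemal complex, 2 HORMA-domain axis genes, 6 genes of double-strand break formation and siting, 5 of strand exchange and repair, 5 of crossover formation, 4 of telomere attachment, and the cyclin Ccnb3.

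Polyadenylated RNA was sequenced from 26 mouse samples, each of XY gonads taken at E13.5 and dissected away from the mesonephros. The groups were wild type (WT, 3 samples), Fgf9 Δ306 (3), Fgf9 Δ225 (6), Fgf9 Δ104 (4), Fgf9 Δ93 (6) and Meis1 KO (4). Fgf9 encodes a secreted growth factor that promotes testis development, and Meis1 encodes a homeobox transcription factor. The labels give no strain, zygosity, deletion boundary, litter, date or pooling of animals. They call the samples biological replicates for Δ225, Δ104, Δ93 and Meis1 KO and give only a replicate number for WT and Δ306, so p-values measure the spread between these samples, which may be technical in part. WT and Δ306 formed the first deposited set, and the other groups were deposited later. Differences of Δ225, Δ104, Δ93 and Meis1 KO from WT or Δ306 therefore cannot be told apart from a difference between sets.

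In the fetal mouse ovary, germ cells respond to retinoic acid and BMP signals by switching on Stra8 and entering meiosis, while germ cells of the fetal testis are kept from doing so and stop dividing. On entry, chromosomes are loaded with meiotic cohesin, build an axis and a synaptonemal complex, receive programmed double-strand breaks, repair them with the recombinase DMC1, and attach their telomeres to the nuclear envelope. These steps take place in germ cells, which are one cell type among many in a whole gonad. Some of the genes, such as Mlh3 and Sun1, also act outside meiosis.

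Several libraries stood apart before any comparison was made. Levels are given as CPM, read counts divided by a library size scaled by the trimmed mean of M values (TMM). Ddx4, a gene of all fetal germ cells, was at 4.27, 81.3 and 139 CPM in WT replicates 1, 2 and 3, at 29.2 CPM in Δ104 replicate 3, and at 59.0 to 232 CPM in the other 18 libraries of that table. WT replicate 1 and Δ104 replicate 3 therefore hold few germ-cell reads. The summed level of 4 Y-linked genes (Ddx3y, Uty, Kdm5d, Eif2s3y) was 31.2 to 77.2 CPM in WT and under 0.1 of the WT median in 7 libraries labelled XY, which were Δ306 replicate 3, Δ225 replicate 4, Δ104 replicate 3 and Δ93 replicates 3, 4, 5 and 6. Lower levels were not limited to these, as every deletion library except Δ104 replicate 4, at 36.2 CPM, was below every WT library. In the Meis1 table the sum was 33.3 to 81.6 CPM in WT and 3.67 to 15.8 CPM in Meis1 KO. Xist, the RNA that coats an inactive X chromosome, was at 6.42 CPM in Δ93 replicate 4, the highest of the 22 libraries, against 0.0583 to 0.185 CPM in WT. Fgf9 was at 9.21 to 9.85 CPM in WT, 2.17 to 2.94 in Δ306, 2.72 to 6.98 in Δ104 and 2.30 to 4.75 in Δ93. In Δ225 it was at 3.69 to 6.36 CPM in 5 libraries and at 16.5 CPM, above every WT library, in the library labelled Δ225 replicate 3. Meis1 was at 62.1 to 109 CPM in WT and 0.201 to 0.695 CPM in Meis1 KO. As a check of the tissue, the Sertoli cell genes Sox9 and Amh were at 98.7 to 104.3 and 1263 to 1685 CPM in WT. Total counts were 11.6 to 53.4 M per library in the table of all deletions and 35.5 to 51.7 M in the Meis1 table.

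Promoter windows from RefSeq (GRCm38.p6, 250 bases before to 50 after the annotated start, first entry per gene) were available for 30 of the 37 genes. Those of the 3 genes called in both Δ306 and Δ93 (Stra8, Meioc and Rec8), and of Sycp3 and Dmc1 from later steps of prophase, are printed 5′ to 3′ on the gene's strand. Capitals mark matches, on either strand, to 4 short motifs: the E-box CACGTG, the E2F6 motif GCGGGAA, the retinoid half-site AGGTCA, and CNCCTCAG, reported for STRA8.
Stra8, chr6:34920698-34920997, plus strand: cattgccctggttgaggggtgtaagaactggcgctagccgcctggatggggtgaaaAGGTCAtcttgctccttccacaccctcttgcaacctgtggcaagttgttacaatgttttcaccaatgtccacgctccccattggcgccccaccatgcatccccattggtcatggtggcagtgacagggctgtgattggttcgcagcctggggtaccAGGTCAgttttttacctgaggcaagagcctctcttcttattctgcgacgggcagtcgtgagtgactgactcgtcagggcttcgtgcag
Meioc, chr11:102665335-102665634, plus strand: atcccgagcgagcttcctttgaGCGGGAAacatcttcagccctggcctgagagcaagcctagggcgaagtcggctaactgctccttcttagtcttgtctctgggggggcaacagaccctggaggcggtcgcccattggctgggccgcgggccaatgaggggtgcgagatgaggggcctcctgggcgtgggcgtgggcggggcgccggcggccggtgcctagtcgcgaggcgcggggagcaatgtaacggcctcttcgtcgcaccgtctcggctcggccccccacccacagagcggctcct
Rec8, chr14:55617916-55618215, plus strand: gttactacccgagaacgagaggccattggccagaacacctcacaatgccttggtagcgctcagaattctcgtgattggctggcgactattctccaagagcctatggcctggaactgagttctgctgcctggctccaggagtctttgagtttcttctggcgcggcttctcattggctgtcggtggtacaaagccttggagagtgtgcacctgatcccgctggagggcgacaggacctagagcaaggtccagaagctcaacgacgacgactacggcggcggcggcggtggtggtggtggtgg
Sycp3, chr10:88459337-88459636, plus strand: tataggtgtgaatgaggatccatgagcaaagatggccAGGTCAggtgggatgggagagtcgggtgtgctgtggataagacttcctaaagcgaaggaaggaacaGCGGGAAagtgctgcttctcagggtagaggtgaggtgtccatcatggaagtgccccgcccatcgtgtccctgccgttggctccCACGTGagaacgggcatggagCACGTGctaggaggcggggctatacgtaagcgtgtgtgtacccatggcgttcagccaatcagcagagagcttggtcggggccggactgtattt
Dmc1, chr15:79605060-79605359, minus strand: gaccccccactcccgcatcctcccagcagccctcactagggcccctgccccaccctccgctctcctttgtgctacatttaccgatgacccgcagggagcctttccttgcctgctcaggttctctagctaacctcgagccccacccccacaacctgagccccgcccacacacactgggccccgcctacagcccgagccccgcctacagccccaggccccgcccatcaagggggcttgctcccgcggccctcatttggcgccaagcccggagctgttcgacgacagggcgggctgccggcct

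The Stra8 window held 2 retinoid half-sites, 194 and 38 bases before the start, and no match to the other 3 motifs. Meioc held 1 E2F6 motif, Sycp3 held 2 E-boxes, 1 E2F6 motif and 1 retinoid half-site, and the letters of all 4 motifs were missing from the Rec8 and Dmc1 windows. Over the 30 windows, the E2F6 motif was in 10 (33.3%) against 4.66% of 27025 promoters, the E-box in 6 (20%) against 7.24%, CNCCTCAG in 6 (20%) against 7.97%, and the retinoid half-site in 5 (16.7%) against 16%. The E2F6 motif lay in Hormad1, Stag3, Tex12, Rec114, Sycp3, Spata22, Meioc, Smc1b, Hsf2bp and Msh5. These shares are descriptions, and none of the motifs overlapped another in the printed windows.

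Against WT, most of the meiotic genes were higher in Δ93, and 2 entry genes and 1 cohesin were higher in Δ306. None was called in Δ225 or Δ104. Calls are genes whose adjusted p in edgeR's quasi-likelihood test, over all 22941 genes tested, was under 0.05, and all 37 members passed the filter on low counts. In Δ93, 31 of 37 rose and 0 fell, where 7.23% of all genes tested were called higher and 6.84% lower. The members' median was 3.07 on the log2 scale, against 0.06 over all genes. In Δ306, 3 of 37 rose (Stra8, Meioc and Rec8) and 0 fell, where 2.96% of all genes were called higher and 3.46% lower, and the median was 1.53 against 0.08. In Δ225 the count was 0, where 0.209% of all genes were called, and 5 of 37 members were at an unadjusted p under 0.05, against 16.1% of all genes. In Δ104 it was 0, where 0.0610% of all genes were called, and 7 of 37 members were at an unadjusted p under 0.05, against 15.7% of all genes. DESeq2 called 35 members in Δ93, 4 in Δ306 (Stra8, Meioc, Rec8 and Majin), 1 in Δ225 (Tex15) and 3 in Δ104 (Stra8, Meioc and Rec8). The shares of all genes called, here and below, are those of edgeR, and those of DESeq2 are not given. A change in the number of germ cells and a change in RNA per germ cell cannot be told apart in bulk tissue.

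These counts rested in part on single libraries. For fits that only leave libraries out, here and below, shares of all genes called are not given. Those counts therefore do not show whether a change in calls was particular to the members. Without WT replicate 1, 7 members were called in Δ93 and 1 in Δ306. Without WT replicate 2 and without WT replicate 3, the Δ93 count was 13 and 20, and without Δ93 replicate 4 it was 18. The Δ306 count was 1 without WT replicate 3 or without Δ306 replicate 3. The Δ104 count was 1 without Δ104 replicate 3 and 2 without Δ104 replicate 4. Without WT replicate 1 and Δ104 replicate 3 together, 15 members rose in Δ93 and only Rec8 rose in Δ306. Without the 7 libraries low in Y-linked RNA, which leaves Δ93 with 2 libraries, no member was called in either, although the log2 fold changes of Stra8, Meioc and Rec8 in Δ93 were 8.63, 5.11 and 5.19 there (adjusted p 0.0563, 0.0548 and 0.0512). Scaled to Ddx4 with all libraries kept, 12 of the 37 members turned below 0 in Δ93, from -3.63 to -0.34. Of these, 5 were called lower, where 86.7% of all genes were called lower and the median of all genes was -3.71. The 12 were Ythdc2, Stag3, Syce2, Mei4, Rec114, Prdm9, Zcwpw1, Dmc1, Tex15, Msh5, Mlh3 and Sun1. Scaled to 4 pan-germ-cell genes, 18 members turned below 0 in Δ93 and 9 were called lower. In that fit most of all genes were called lower, and the median of all genes was -5.07. With WT replicate 1 and Δ104 replicate 3 left out and Ddx4 scaling, Mlh3 and Sun1 were below 0 in Δ93, at -0.68 and -0.65, and neither was called. Fitted in the authors' first table, which holds only WT and Δ306, 11 members rose in Δ306. The share of all genes called in that fit is not given, so the count does not show whether the change was particular to the members.

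**Figure D1:**
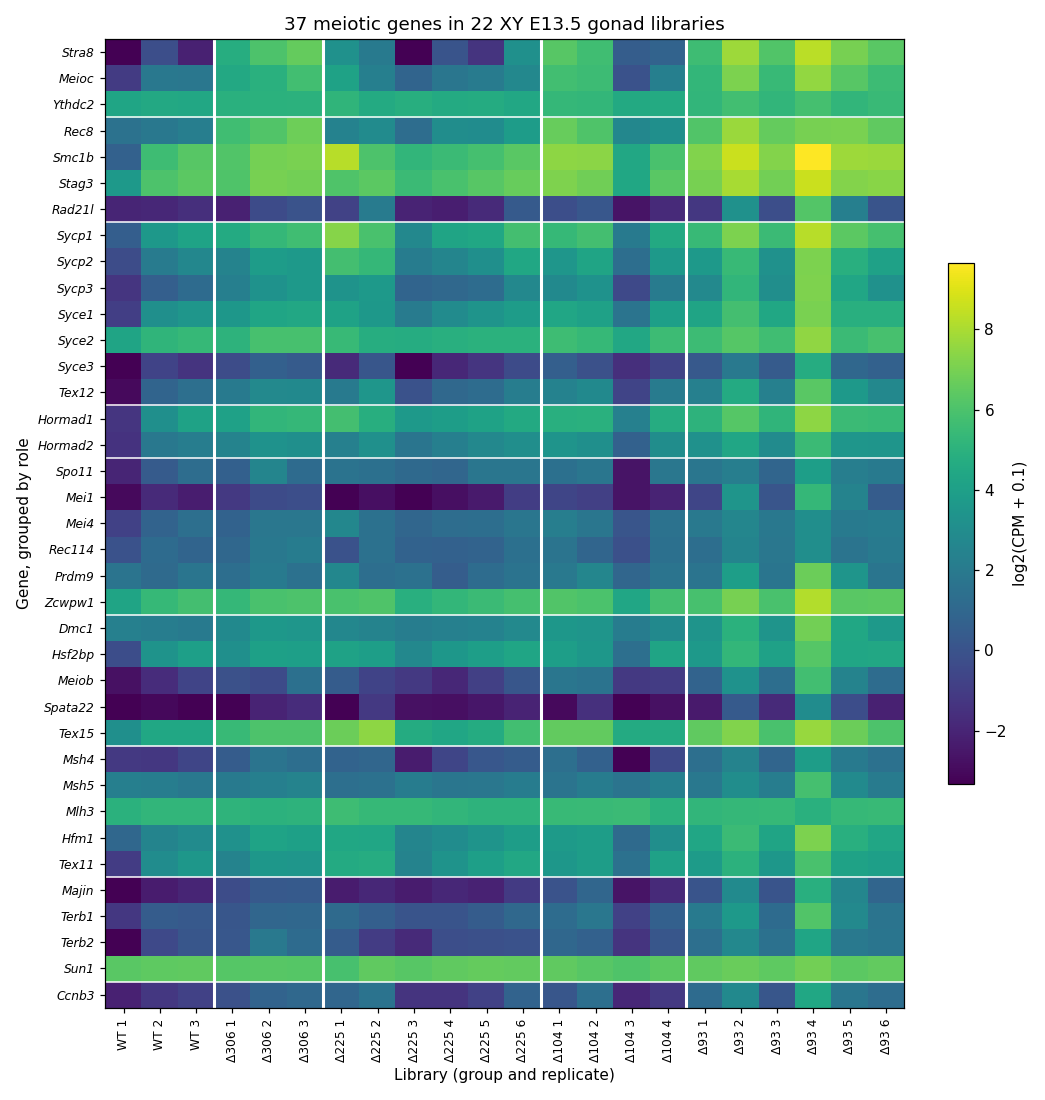
Levels of the 37 genes (rows, grouped by role) in the 22 libraries of WT and the Fgf9 deletions (columns), as log2(CPM + 0.1). Δ93 replicate 4 was the highest library of its group at 35 of 37 genes, and WT replicate 1 the lowest of its group at 33 of 37.

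Stra8, which encodes the gatekeeper of meiotic initiation, was at 0, 0.777 and 0.132 CPM in the 3 WT libraries. It was at 27.1, 64.5 and 95.9 CPM in Δ306, and at 76.7, 50.5, 1.34 and 1.65 CPM in Δ104 replicates 1 to 4. In Δ225 it ranged from 0 to 9.27 CPM with a median of 2.39, and in Δ93 from 49.3 to 324 CPM with a median of 105. Every Δ306, Δ104 and Δ93 library was above every WT library, whereas Δ225 overlapped WT. The log2 fold change of Stra8 was 7.57 ± 1.76 (SE) in Δ306 (adjusted p = 0.0151), 8.78 ± 1.79 in Δ93 (0.00342), 6.63 ± 1.68 in Δ104 (0.0925) and 3.50 ± 1.5 in Δ225 (0.275).

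Meioc, whose product keeps germ cells in the meiotic program by acting on RNA, was at 0.377, 3.54 and 3.48 CPM in WT. It was at 22.4, 30.1 and 52.1 CPM in Δ306 and at 53.3, 47.4, 0.872 and 4.82 CPM in Δ104. Its range was 1.74 to 18.0 CPM (median 4.47) in Δ225 and 38.5 to 190 CPM (median 62.9) in Δ93. Δ306 and Δ93 lay above WT in every library, and Δ104 replicate 3 lay inside the WT range. Its log2 fold change was 3.82 ± 1.12 in Δ306 (adjusted p = 0.0441) and 5.17 ± 1.14 in Δ93 (0.00543). Ythdc2, which encodes an RNA helicase that works with MEIOC, was at 19.8 to 22.7 CPM in WT and 36.7 to 55.9 CPM in Δ93, a log2 fold change of 1.04 ± 0.20 (adjusted p = 0.00248). In Δ306 it was at 29.9, 30.7 and 32.0 CPM, all above WT, with 0.52 ± 0.22 and an adjusted p of 0.167. Counted per Ddx4 read over all libraries, the direction of Ythdc2 against WT was lower in each deletion, which rests on WT replicate 1.

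**Figure D2:**
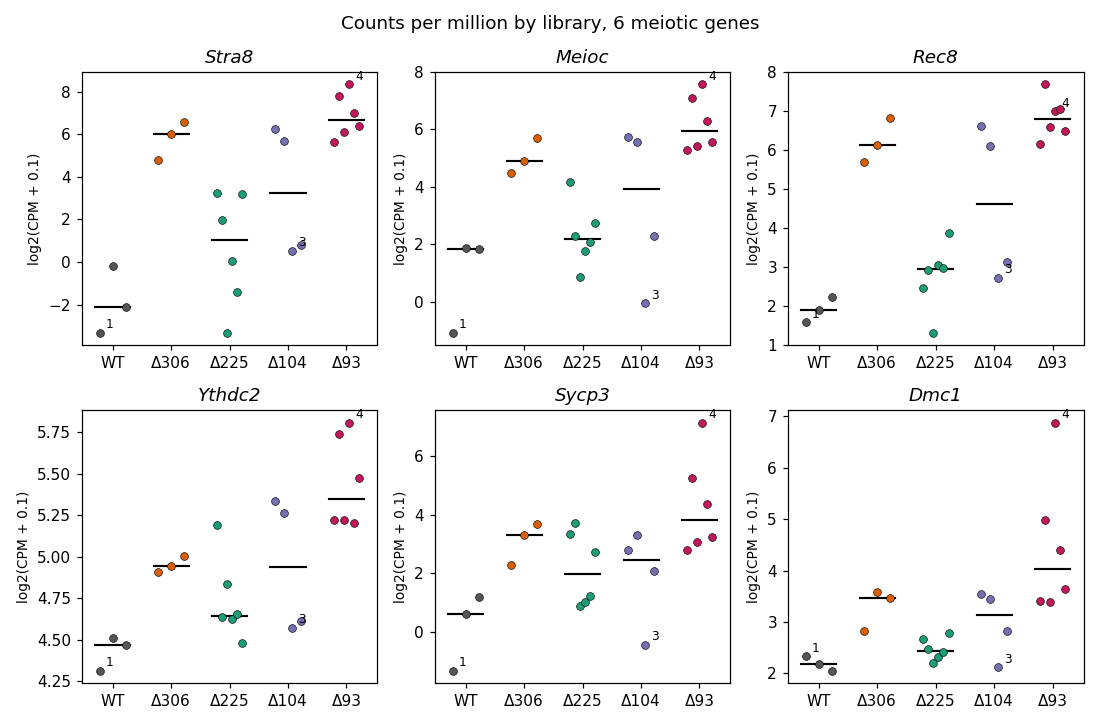
log2(CPM + 0.1) of 6 genes in each library by group, with a bar at the group median and the numbers 1, 3 and 4 beside WT replicate 1, Δ104 replicate 3 and Δ93 replicate 4. Stra8, Meioc and Rec8 split Δ104 into 2 high and 2 low libraries; plotted per Ddx4 read, Ythdc2 and Dmc1 of WT replicate 1 lie above the other libraries.

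Among the meiotic cohesins, Rec8, the kleisin subunit that holds sister chromatids through meiosis, followed the entry genes. It was at 2.86, 3.59 and 4.54 CPM in WT, 52.0, 70.2 and 113 in Δ306, and 98.6, 68.0, 6.45 and 8.66 in Δ104. In Δ225 it ranged from 2.37 to 14.4 CPM (median 7.64) and in Δ93 from 70.7 to 206 CPM (median 112). All Δ306, Δ104 and Δ93 libraries were above all WT libraries. The log2 fold change was 4.41 ± 0.81 in Δ306 (adjusted p = 0.00545), 5.04 ± 0.81 in Δ93 (9.05e-04) and 3.64 ± 0.77 in Δ104 (0.0621). Smc1b, Stag3 and Rad21l also rose in Δ93, and all 4 cohesins lay above WT there without overlap. Without Δ93 replicate 4, 2 of the 4 were called (Rec8 and Stag3), and without WT replicate 1 Rec8 alone was. Smc1b, an SMC subunit, differed widely within WT, at 1.56, 49.7 and 77.4 CPM, and reached 311 CPM in Δ225 replicate 1, where Stra8 was at 9.27 CPM.

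All 7 genes of the synaptonemal complex, the protein zipper between homologous chromosomes, rose in Δ93 with no overlap with WT, and none was called in Δ306. Sycp3, a component of its lateral element, was at 0.301, 1.44 and 2.22 CPM in WT and 4.74, 9.79 and 12.7 CPM in Δ306. Its range in Δ225 was 1.74 to 13.1 CPM and in Δ93 6.84 to 141 CPM, with a log2 fold change of 4.82 ± 1.17 in Δ93 (adjusted p = 0.0095) and 2.78 ± 1.12 in Δ306 (0.143). Without Δ93 replicate 4 the count of 7 became 1 (Sycp3), and without WT replicate 1 it became 0. Syce3, a central element gene, was at 0, 0.505 and 0.290 CPM in WT, from 0, 26 and 11 counts, and at 1.13 to 26.2 CPM in Δ93, a log2 fold change of 4.44 ± 1.28 (adjusted p = 0.0236). Sycp3 exons overlap those of Chpt1 on the other strand, and whether counting used strand is not given, so its level is uncertain. Both HORMA-domain genes, whose products mark unsynapsed axes, rose in Δ93, a count that was 1 (Hormad2) without Δ93 replicate 4 and 0 without WT replicate 1. Hormad2 was at 0.276, 3.57 and 4.46 CPM in WT and 7.68 to 46.6 CPM in Δ93 (log2 fold change 2.67 ± 0.74, adjusted p = 0.0194).

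Of the 6 genes of double-strand break formation and siting, 5 rose in Δ93, and Spo11, which encodes the break-forming enzyme, did not pass. Without Δ93 replicate 4 or without WT replicate 1, Mei1 alone was called. Mei1, which is needed for breaks, was at 0.0251, 0.194 and 0.106 CPM in WT, 0.351, 0.684 and 0.777 CPM in Δ306, and 0.566 to 40.5 CPM in Δ93 (log2 fold change 6.43 ± 1.46, adjusted p = 0.00614). Zcwpw1, a histone reader that acts with PRDM9, was at 19.2, 41.1 and 55.3 CPM in WT and 59.5 to 287 CPM in Δ93 (1.60 ± 0.49, adjusted p = 0.033). Exons of Zcwpw1 and Rec114, and of Hsf2bp, Msh4 and Sun1 in later roles, overlap genes on the other strand, so their levels are uncertain in the same way. In Δ306 and Δ225, no gene of this role was at an unadjusted p under 0.05.

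Strand exchange and repair genes rose in Δ93 at 4 of 5 members, with Hsf2bp not called, and without WT replicate 1 Dmc1 alone was called. Dmc1, which encodes the meiotic recombinase, was at 4.95, 4.45 and 4.04 CPM in WT and 6.98, 11.9 and 11.02 CPM in Δ306. It was at 4.50 to 6.76 CPM in Δ225 and 10.4 to 117 CPM in Δ93. Dmc1 was steady in WT while Ddx4 was at 4.27, 81.3 and 139 CPM there, so its WT level did not follow Ddx4. The Δ93 log2 fold change of Dmc1 was 2.92 ± 0.66 (adjusted p = 0.00635). Meiob, a single-strand DNA binding gene, was at 0.0502, 0.214 and 0.528 CPM in WT and 1.65 to 52.2 CPM in Δ93 (5.54 ± 1.32, adjusted p = 0.00835). Spata22, the partner of Meiob, had 0, 1 and 0 counts in WT and 2 to 296 counts in Δ93, and it shares exons with another gene on the same strand, so no fold is given.

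Crossover genes were split, with Msh4 and Hfm1 higher in Δ93 and Msh5, Mlh3 and Tex11 not called, and none of the 5 was called without WT replicate 1. Msh4, a meiotic MutS homologue, was at 0.352, 0.330 and 0.554 CPM in WT and 1.76 to 14.9 CPM in Δ93 (3.67 ± 0.97, adjusted p = 0.0155). Hfm1, a meiotic DNA helicase gene, was at 1.93, 5.77 and 7.68 CPM in WT and 19.0 to 135 CPM in Δ93 (3.14 ± 0.74, adjusted p = 0.00774). Mlh3, which also serves mismatch repair outside meiosis, was at 31.6 to 37.5 CPM in WT and 29.9 to 43.4 CPM in Δ93. Of the telomere attachment genes, Majin, Terb1 and Terb2 rose in Δ93, and Sun1, a nuclear envelope gene of many cell types, did not pass. Without WT replicate 1, Majin alone of these was called. Majin, a membrane anchor of telomeres, was at 0, 0.0971 and 0.158 CPM in WT and 0.943 to 29.3 CPM in Δ93 (6.45 ± 1.34, adjusted p = 0.0036). Ccnb3, a B-type cyclin of meiosis, was at 0.126, 0.330 and 0.475 CPM in WT and 1.02 to 20.9 CPM in Δ93 (4.29 ± 1.12, adjusted p = 0.0139), a call that was lost without WT replicate 1.

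**Figure D3:**
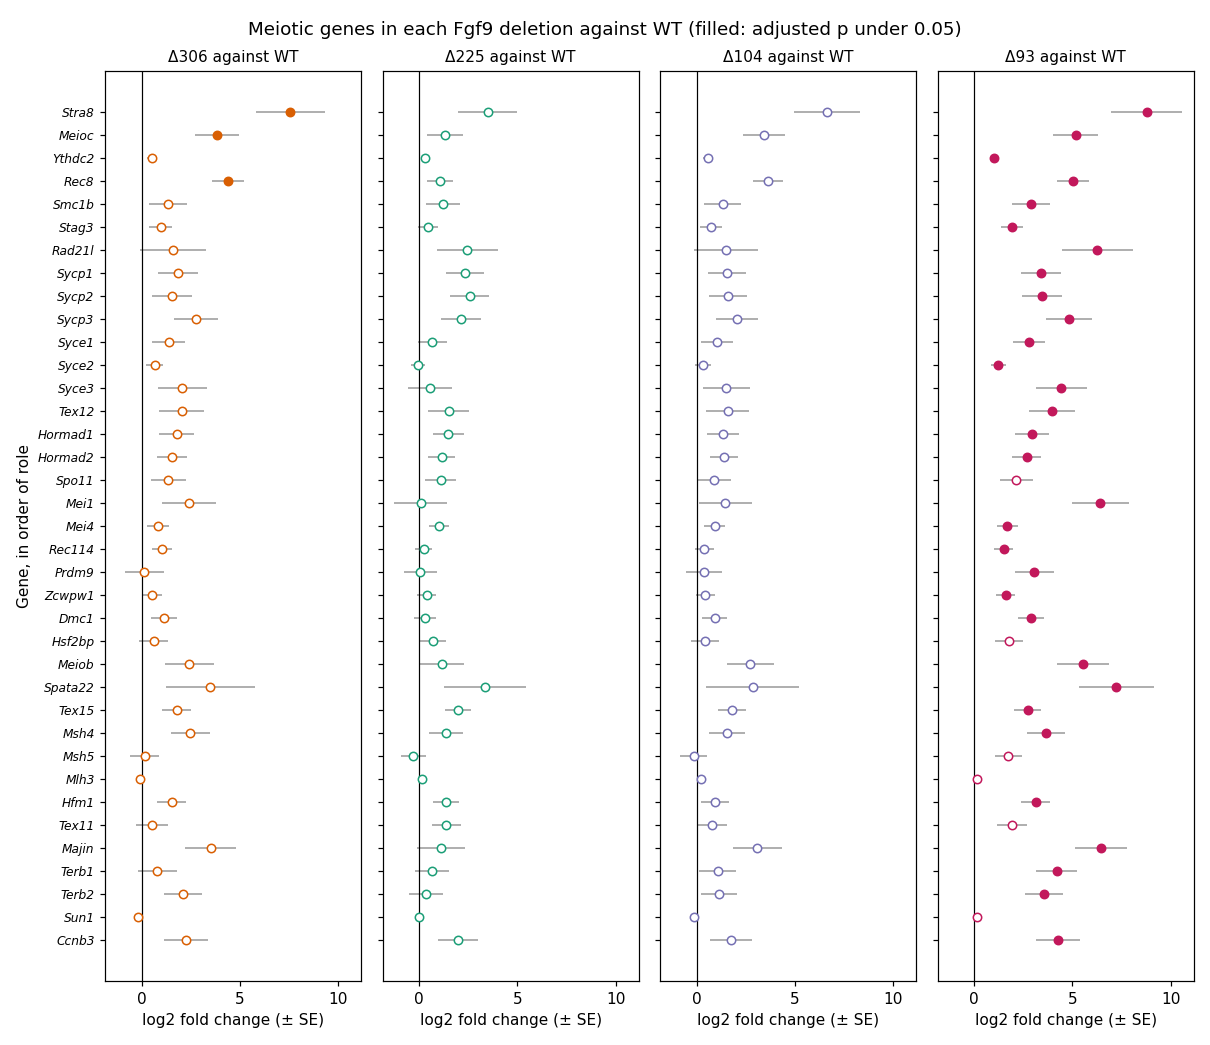
log2 fold change of each gene against WT in the 4 deletions, with bars of 1 SE and filled points where the adjusted p was under 0.05. All 37 points are above 0 in Δ93, where 31 are filled. Per Ddx4 read over all libraries, 5 of those 37 genes (Ythdc2, Syce2, Msh5, Mlh3 and Sun1) were called lower in Δ93, where 86.7% of all genes were called lower.

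Ranges that did not overlap WT on the higher side were seen at 30 of 37 members in Δ93, where 12.1% of all genes tested had such ranges, at 19 in Δ306 (19.2%), at 4 in Δ104 (8.68%) and at 0 in Δ225 (5.22%).

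Marker genes of germ cells and of other cell types also differed between groups, though not always as the members did. The summed level of 4 pan-germ-cell genes was 9.19 to 470 CPM in WT and 549 to 942 CPM in Δ93, with no overlap, and it was 306 to 603 CPM in Δ306, which overlapped WT. In Δ225, where edgeR called no member against WT, that sum was 243 to 905.5 CPM, which overlapped both WT and Δ93. The summed level of 6 Sertoli genes was 1842 to 2299 CPM in WT, 86.1 to 480 in Δ306 and 55.9 to 818 in Δ93, and that of 6 pre-granulosa genes was 64.4 to 112 CPM in WT, 378 to 737 in Δ306 and 431 to 1088 in Δ93. The summed fetal Leydig genes were at 902 to 1554 CPM in WT, 39.8 to 91.3 in Δ306 and 50.1 to 314 in Δ93. The summed male germ-cell genes were at 8.92 to 116 CPM in WT, 10.8 to 29.3 in Δ306 and 12.0 to 53.8 in Δ93. Lefty1 and Lefty2 made up most of that sum in WT. Piwil4 (0.377 to 1.54 CPM in WT, 2.17 to 5.03 in Δ93) and Tdrd9 (0.502 to 1.61, 1.98 to 13.7) were above WT in every Δ93 library, and the other genes of that list were not. In the Sertoli list, Amh made up most of the WT sum, Cldn11 overlapped WT in Δ306 and Δ93, and Aard overlapped WT in Δ93. In Δ104, replicates 1 and 2 had Foxl2, a pre-granulosa gene, at 77.0 and 40.6 CPM and Stra8 at 76.7 and 50.5 CPM, while replicates 3 and 4 had Foxl2 at 13.0 and 1.22 CPM and Stra8 at 1.34 and 1.65 CPM. The part of these cell types in the results was not tested.

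Between deletions, most calls were between Δ225 and Δ93. Against Δ93, 26 of 37 members were lower in Δ225 and 0 higher, where 10.8% of all genes were called lower and 9.96% higher, and the count was 13 without Δ93 replicate 4 and 6 without the libraries low in Y-linked RNA. The log2 fold change of Stra8 was -5.28 ± 1.08 (adjusted p = 0.00167), that of Meioc -3.85 ± 0.79 (0.00171), and that of Rec8 -3.97 ± 0.56 (9.19e-05). Against Δ306, Stra8 and Rec8 were lower in Δ225 (2 of 37, 6.74% of all genes called lower and 6.47% higher), at -4.07 ± 1.1 (adjusted p = 0.0195) and -3.34 ± 0.60 (0.00149). That count was 1 without Δ306 replicate 2 or without Δ306 replicate 3. Against Δ104, Rec8 alone was lower in Δ225, at -2.56 ± 0.56 (adjusted p = 0.0346), where 0.619% of all genes were called lower and 0.0262% higher. That call was lost without any one of Δ225 replicates 1 to 5 or of Δ104 replicates 1 and 2. Without Δ225 replicate 3, the library with high Fgf9, 22 members were lower in Δ225 against Δ93 and 2 against Δ306. These comparisons share libraries with each other and with those against WT.

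No member was called between Δ93 and Δ104, Δ93 and Δ306, or Δ104 and Δ306 in edgeR, where 0.0523%, 0.0785% and 0.0654% of all genes were called. Unadjusted p-values under 0.05 were found for 29, 15 and 0 of 37 members, against 14.5%, 9% and 11.1% of all genes, and DESeq2 called 13, 2 and 0 members. Without Δ93 replicate 1, edgeR called 7 members higher in Δ93 than in Δ104, and without Δ104 replicate 1 it called 1. The log2 fold change of Stra8 was 2.15 ± 1.08 in Δ93 against Δ104 (adjusted p = 0.359) and 1.22 ± 1.14 against Δ306 (0.81).

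Counted per 100 Ddx4 reads, Stra8 in every Δ306 and Δ93 library was above every WT and Δ225 library, while Δ225 overlapped WT, Δ306 overlapped Δ93, and Δ104 overlapped both Δ225 and the higher groups. It was at 0, 0.955 and 0.0952 in WT, 31.9, 51.0 and 69.9 in Δ306, and 51.8, 37.2, 4.57 and 1.22 in Δ104. Its range was 0 to 5.35 in Δ225 (median 1.32) and 33.3 to 175 in Δ93 (median 69.6). For Rec8, WT replicate 1 was at 67.1 per 100 Ddx4 reads, within the Δ93 range of 42.2 to 97.1, while WT replicates 2 and 3 were at 4.42 and 3.27. Rec8 of Δ104 replicates 1 to 4 was at 66.6, 50.1, 22.1 and 6.39, so replicate 3 lay between the others on this scale. Dmc1 was at 116 per 100 Ddx4 reads in WT replicate 1, at 5.47 and 2.91 in WT replicates 2 and 3, and at 5.84 to 63.2 in Δ93. On this scale WT replicate 1 was the highest WT library at 27 of 37 members, with its Ddx4 at 4.27 CPM.

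Scaling the fit to Ddx4 shifted the log2 fold change of the median gene to -3.71 in Δ93 against WT, with 12 members called higher and 5 lower, where 0.536% of all genes were called higher and 86.7% lower. With WT replicate 1 and Δ104 replicate 3 also left out, that median was -0.65 and 8 members were higher in Δ93 and 0 lower, where 0.496% of all genes were called higher and 4.62% lower. The 8 were Stra8 (7.27 ± 1.59, adjusted p = 0.00865), Meioc (3.85 ± 0.81, 0.00727), Rec8 (4.14 ± 0.73, 0.00254), Sycp3, Mei1, Meiob, Msh4 and Majin. In Δ225 against Δ93, 23 members were lower in the same fit, where 2.37% of all genes were called lower and 7.72% higher. The alternatives without those libraries were chosen after seeing the data.

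**Figure D4:**
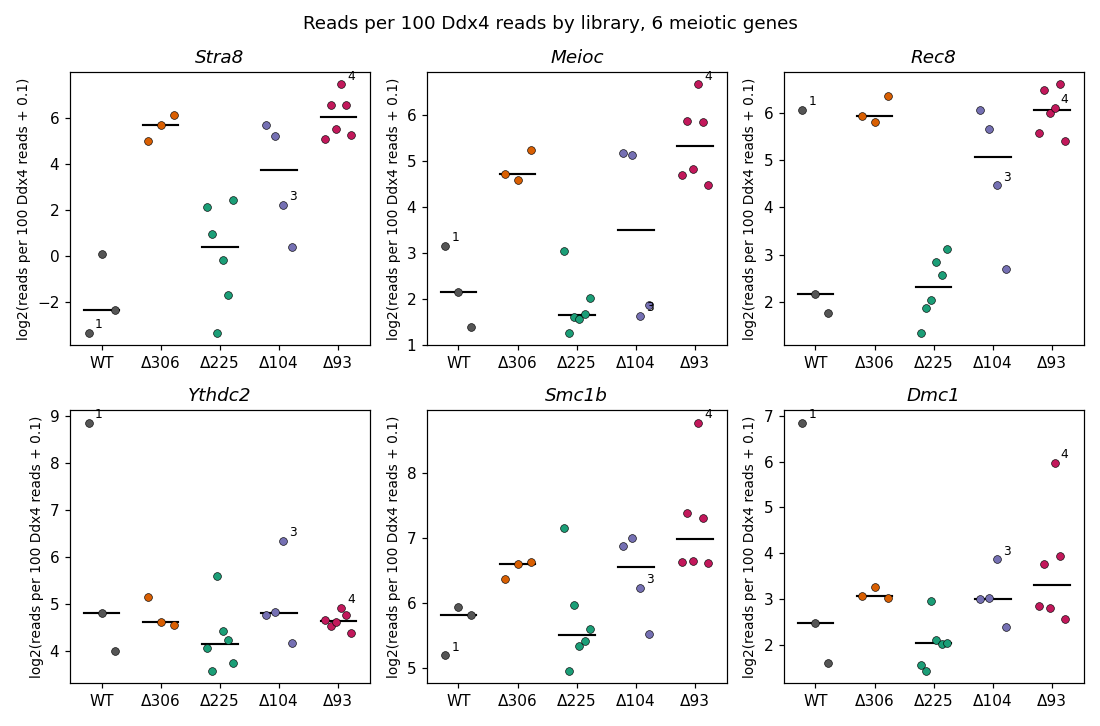
log2(reads per 100 Ddx4 reads + 0.1) of 6 genes in each library by group, with a bar at the group median and the numbers 1, 3 and 4 beside WT replicate 1, Δ104 replicate 3 and Δ93 replicate 4. Stra8 of Δ306 and Δ93 lies above WT in every library, and Rec8, Ythdc2 and Dmc1 of WT replicate 1 lie far above the other WT libraries.

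Within Δ93 the genes did not vary together in size. The ratio of replicate 4 to the median of the other 5 libraries was over 5 at 18 members, 2 to 5 at 15, and under 2 at 4. Among those 4, Mlh3 was below that median, at a ratio of 0.73. The ratio was 76.4 for Rad21l, a cohesin kleisin, 33.2 for Prdm9, which sites the breaks, 18.1 for Terb1 and 9.41 for Dmc1, but 3.95 for Stra8, 1.32 for Rec8 and 1.502 for Ythdc2. Rad21l was at 72.1 CPM in replicate 4 and 0.330 to 9.37 CPM in the other 5 libraries. Prdm9 was at 107 CPM in replicate 4 and 3.07 to 15.3 CPM in the others. Rad21l, Prdm9 and Terb1 were singled out after their values were seen. Replicate 4 was also the library with the lowest summed Y-linked level (0.0265 CPM) and the highest Xist, whereas its Ddx4 level, 185 CPM, lay within the 137 to 232 CPM of the other 5.

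**Figure D5:**
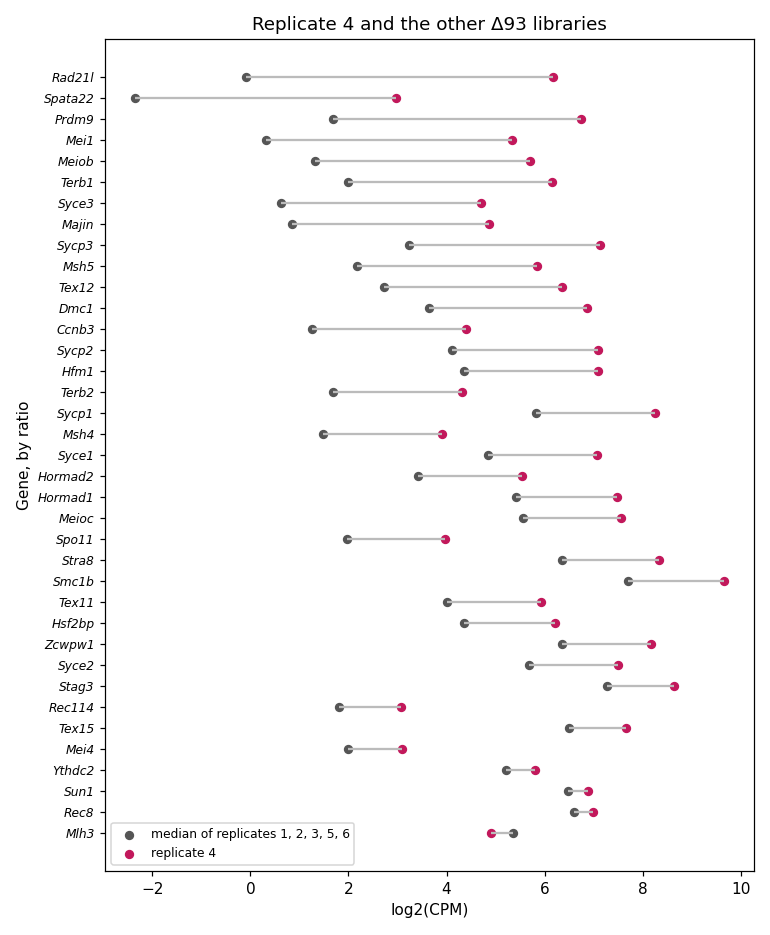
log2(CPM) of each gene in Δ93 replicate 4 and the median of the other 5 Δ93 libraries, ordered by their ratio. The ratio falls from 76.4 at Rad21l to 0.73 at Mlh3, with Rec8 at 1.32.

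Per kilobase of exon, the order of the genes changed between groups. In WT the highest means were Syce2 at 16.4 CPM per kb, Sun1 at 11.3, Smc1b at 10.6 and Stag3 at 9.35, and Stra8 was 30th of 37 at 0.168. Without WT replicate 1 the order was Syce2 at 19.8, Smc1b at 15.7, Stag3 at 13.0 and Sun1 at 11.7. In Δ306 and Δ93, Stra8 was first, at 34.7 and 80.6 CPM per kb, with Smc1b second at 26.9 and 79.0 and Rec8 the third at 26.6 and 41.1. In Δ225 the highest was Smc1b at 24.6, and Stra8 was 20th at 2.16, but without Δ225 replicate 1 Smc1b was at 14.1, below Syce2 at 14.8. Spata22 was last in WT at 0.00508 CPM per kb.

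A second list held 20 other meiotic genes, of which 19 were tested. It too was chosen with earlier results of these data known, so it is not independent of them. In Δ93 against WT, 13 rose and 0 fell, where 7.23% of all genes were called higher and 6.84% lower. Among the 13 was Meiosin, the partner of STRA8 in switching on meiotic genes, with a log2 fold change of 3.94 ± 0.87 (adjusted p = 0.00542). Meiosin was at 183 CPM in Δ93 replicate 4 and 12.8 to 70.7 CPM in the other Δ93 libraries. Counts of this list with libraries left out are not given. In Δ306, 1 of 19 rose, Ccnb1ip1, a crossover gene (1.85 ± 0.53, adjusted p = 0.0422), where 2.96% of all genes were called higher and 3.46% lower. No gene of that list was called in Δ225 or Δ104 against WT, with 3 and 0 of 19 at an unadjusted p under 0.05, where the shares of all genes are those given above. Between Δ225 and Δ93, 9 were lower in Δ225 and 1, Sgo2a, a protector of cohesin, was higher (0.67 ± 0.23, adjusted p = 0.0398). In that comparison 10.8% of all genes were called lower and 9.96% higher.

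Meis1 KO was compared with the same 3 WT samples in a table of its own. No member was called against WT among the 32 tested in that table, where 1.80% of 16791 genes were called. At an unadjusted p under 0.05 there was 1 member of 32, against 19.3% of all genes. DESeq2 called Sun1 lower. Stra8, which did not pass the filter on low counts, was at 0, 0.845 and 0.140 CPM in WT and 0.0223, 0.432, 0.115 and 0.129 CPM in Meis1 KO. Rec8 was at 3.05, 3.89 and 4.73 CPM in WT and 3.81, 6.74, 3.53 and 3.20 CPM in Meis1 KO, with a log2 fold change of 0.15 ± 0.29 (adjusted p = 0.836). Without WT replicate 1, 4 members were lower in Meis1 KO: Smc1b (-0.92 ± 0.25, adjusted p = 0.0418), Stag3 (-0.66 ± 0.18, 0.0407), Spo11 (-1.34 ± 0.35, 0.0369) and Sun1 (-0.25 ± 0.06, 0.0274). With Ddx4 scaling in addition none of the 4 was called, and Stag3 and Sun1 changed sign, at 0.03 and 0.49. Ddx4 was at 87.5 and 147 CPM in WT replicates 2 and 3 and 49.7 to 102 CPM in Meis1 KO.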

How the data were processed

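The authors deposited raw read counts per gene, whole numbers whose totals differ between libraries, and no column was left unmapped. Per the submitters' processing notes, reads were handled with STAR (version 2.7.10a for WT and Δ306), featureCounts of Subread and DESeq2 on mm10; the annotation and the strand setting of the counting are not given in the sources used here, although the kit marks strand per the labels' protocols. Symbols were taken from the map in the authors' deposited comparison table, and no value of it was used. In the first table, columns named only for Fgf9 were taken as Δ306 from the series' design text. Coordinates and exon lengths come from GENCODE M21 (GRCm38).

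Genes were filtered with filterByExpr, scaled by TMM and tested with edgeR 4.0.16 in R 4.3.3 (estimateDisp, glmQLFit, glmQLFTest, Benjamini-Hochberg adjustment over all genes tested). The 22 libraries of WT and the deletions shared 1 fit with 17 residual degrees of freedom, and Meis1 KO was fitted with WT in its own table with 5. That gave 11 comparisons. The SE is the unshrunk log2 fold change divided by the square root of F. Alternatives were DESeq2 1.42.0, RLE factors, no filter, scaling to Ddx4 or to 4 pan-germ-cell genes, 2-group fits, a replicate block, and libraries left out. The script was tested on simulated data.

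Values are given for the 3 entry genes and, in each other role, for the member called in most comparisons with WT (ties by the smallest p in Δ93), with a second in roles of 5 or more. Members and lists were chosen with earlier results of these data known. In no comparison was the correlation of deviations over 0.1 in every pair of same-numbered libraries, so replicate numbers were not taken to pair the samples.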

Additional observations from a re-analysis of the deposited data

Results flagged for a closer look

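In groups of 4 to 6 libraries, a library was marked where its gap to the nearest other exceeded Dixon's 95% critical value for the group's range, which chance does in about 1 of 20 groups. Of 64 gene-by-group sets (16 genes in 4 groups), 15 were marked. In Δ93, replicate 4 was marked as the highest at 11 genes, with Sycp3 at 141 CPM, Syce3 at 26.2, Hormad2 at 46.6, Mei1 at 40.5, Zcwpw1 at 287, Dmc1 at 117, Meiob at 52.2, Hfm1 at 135, Msh4 at 14.9, Majin at 29.3 and Ccnb3 at 20.9 CPM. The next highest Δ93 library had 37.9 CPM of Sycp3 and 31.5 CPM of Dmc1. In Δ225, replicate 1 was marked at Meioc (18.0 CPM, next 6.59), and replicate 6 at Mei1 (0.415 CPM, next 0.0937) and Majin (0.366 CPM, next 0.177). In Δ104, replicate 3 was marked as the lowest at Ddx4, with 29.2 CPM against 135 CPM in the next library.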

How the results depend on the processing

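RLE factors moved no count of called members by more than 1.5 times, and without a filter on low counts the Δ104 count against WT was 1. With DESeq2 the counts were 1 for Meis1 KO, 3 for Δ104 and 1 for Δ225 against WT, 13 for Δ93 against Δ104 and 2 for Δ93 against Δ306. Fitting only the compared groups gave 11 for Δ306 against WT, 4 for Δ225 against Δ306 and 0 for Δ225 against Δ104, and the first table gave 11 for Δ306. Leaving out the libraries low in Y-linked RNA gave 0 for Δ306 and 0 for Δ93 against WT, and 6, 1 and 0 for Δ225 against Δ93, Δ306 and Δ104, with fewer samples in each. Leaving out the libraries with few germ-cell reads, chosen after seeing the data, gave 1 for Δ306, 15 for Δ93 and 4 for Meis1 KO. Scaled to Ddx4 as well, it gave 1 for Δ306, 8 for Δ93 and 3 for Δ225 against Δ104. With 1 library left out, the counts ranged from 1 to 2 for Δ306, 0 to 2 for Δ104, 7 to 32 for Δ93 and 0 to 4 for Meis1 KO against WT, from 13 to 26 for Δ225 against Δ93, 1 to 3 against Δ306 and 0 to 1 against Δ104, and 0 to 7 for Δ93 against Δ104. The cause was not tested. These counts are given without shares of all genes called, so they do not show whether a change was particular to the members.

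Scaled to Ddx4 with all libraries, the counts were 8 for Δ306 (3 higher, 5 lower), 10 for Δ225 (all lower), 8 for Δ104 (1 higher, 7 lower) and 17 for Δ93 (12 higher, 5 lower) against WT, where 68.1% to 86.7% of all genes were called lower, 11 lower for Δ225 against Δ93, 0 for Δ225 against Δ104 and 2 higher for Δ93 against Δ104. Scaled to the pan-germ-cell genes, they were 9 (8 lower), 15 (all lower), 11 (10 lower) and 13 (9 lower) against WT, where 82.3% to 91.1% of all genes were called lower, and 7, 1 and 0 for Δ225 against Δ93, Δ306 and Δ104. The scale of WT then rests on replicate 1. Over all members, 16 in Δ306, 24 in Δ225, 17 in Δ104, 12 in Δ93 and 8 in Meis1 KO turned below 0 with Ddx4 scaling. Signs are listed here and below only for the 15 members with values in the report by rule. With Ddx4 scaling those turned were in Δ306 Ythdc2 -2.61, Zcwpw1 -1.91, Dmc1 -2.26, Msh4 -0.45 and Hfm1 -0.59; in Δ104 Ythdc2 -2.13, Zcwpw1 -1.81, Dmc1 -2.21, Msh4 -1.59, Hfm1 -1.17 and Ccnb3 -0.14. In Δ225 they were Meioc -0.38, Ythdc2 -2.96, Rec8 -2.21, Syce3 -0.56, Hormad2 -0.08, Mei1 -1.47, Zcwpw1 -2.35, Dmc1 -3.28, Meiob -0.20, Msh4 -2.03, Hfm1 -1.11 and Ccnb3 -0.41. In Δ93 they were Ythdc2 -2.75, Zcwpw1 -1.47 and Dmc1 -1.13, and in Meis1 KO Meioc -0.14, Ythdc2 -2.13, Rec8 -1.99, Sycp3 -0.90 and Meiob -0.13.

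With pan-germ-cell scaling the turned values were in Δ306 Ythdc2 -3.81, Hormad2 -0.24, Zcwpw1 -3.08, Dmc1 -3.51, Msh4 -1.72, Hfm1 -1.73 and Ccnb3 -0.73, and in Δ93 Ythdc2 -4.13, Hormad2 -0.03, Zcwpw1 -2.92, Dmc1 -2.77, Msh4 -1.41 and Hfm1 -1.07. In Δ225 they were Meioc -1.10, Ythdc2 -3.95, Rec8 -3.27, Sycp3 -0.83, Syce3 -0.91, Hormad2 -0.73, Mei1 -1.98, Zcwpw1 -3.34, Dmc1 -4.32, Meiob -0.82, Msh4 -3.18, Hfm1 -2.09 and Ccnb3 -1.46. In Δ104 they were Ythdc2 -3.24, Rec8 -0.63, Sycp3 -0.55, Hormad2 -0.32, Mei1 -0.21, Zcwpw1 -2.89, Dmc1 -3.36, Msh4 -2.84, Hfm1 -2.24 and Ccnb3 -1.17. In Meis1 KO they were Meioc -0.67, Ythdc2 -2.98, Rec8 -2.82, Sycp3 -1.60, Syce3 0.01 and Meiob -0.60.

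Without the libraries with few germ-cell reads, the sign turned in Δ225 for Syce3 (-0.01) and Mei1 (-0.35) and in Meis1 KO for Meioc (-0.12), Sycp3 (-0.38) and Meiob (-0.31). With Ddx4 scaling in addition, it turned in Δ225 for Ythdc2 (-0.02), Syce3 (-0.75), Mei1 (-0.98), Zcwpw1 (-0.36) and Dmc1 (0.00), in Δ104 for Zcwpw1 (0.00), and in Meis1 KO for Hormad2 (0.09), Zcwpw1 (0.16), Dmc1 (0.67), Msh4 (0.34), Hfm1 (0.26) and Ccnb3 (0.16). With DESeq2, Mei1 in Δ225 was at 0.00.

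With 1 library left out, members whose sign turned ranged from -1.19 to 0.84 for Mei1 in Δ225, and in Meis1 KO from -0.12 to 0.76 for Meioc, -0.15 to 0.31 for Rec8, -0.38 to 0.58 for Sycp3, -0.81 to 0.68 for Syce3, -0.58 to 0.46 for Hormad2, -0.55 to 0.13 for Zcwpw1, -0.31 to 1.05 for Meiob, -0.51 to 0.01 for Msh4, -0.44 to 0.33 for Hfm1 and -0.50 to 0.25 for Ccnb3. Of these members, none was called with all libraries.

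The replicate number as a block in the fit of all groups gave 14 called members for Δ93 and 1 for Δ104 against WT, 16 for Δ225 against Δ93 and 0 against Δ104, with Mei1 in Δ225 at -1.05. As a block in 2-group fits it gave 18 for Δ306 and 9 for Δ93 against WT, 1 for Δ225 against Δ306 and 0 against Δ104, with Syce3, Hormad2 and Hfm1 in Meis1 KO at 0.12, 0.36 and 0.03. Shares of all genes called are not given for the fits with a block, so their counts do not show whether a change was particular to the members. The samples share only a number: correlations of same-numbered libraries were 0.05 to 0.21 for Δ306 and WT and -0.05 to 0.04 for Δ93 and WT, and in no comparison did every library correlate best with its own number.

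Depth limits the members under 1 CPM in WT, such as Spata22, Mei1 and Majin, where a few counts set the level. Of the 3 WT libraries, replicate 1 holds few germ-cell reads, yet the main fit used all 3. WT replicate 1 was the lowest of its group at 33 of 37 members, which lowers the WT mean there. Without it the Δ93 count was 7 in place of 31.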
